A study of Mus musculus with 22 samples.

Results

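Proteasome genes were examined as a family in chromatin accessibility data from mouse hepatocyte nuclei. The members were the genes whose symbol begins with Psm, a letter from a to g and a number, and that had at least 1 accessible peak within 50 kb of a transcription start. There were 46 such genes of the 15686 genes with a peak in that range. They included 45 proteasome genes and Psmc3ip, a meiotic recombination protein whose symbol matches the pattern although it is no subunit. The members held 134 of the 56777 peaks within 50 kb of a named gene, 61 of them within 1 kb of a start (called promoter peaks here) and 73 farther away. All peaks were 200 bp windows. Psma8, Psmb11, Psmd10 and Psme2b had no peak assigned to them within 50 kb.

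The proteasome is the large protease that degrades proteins tagged with ubiquitin. Its 20S core is a barrel of alpha rings (Psma genes) around beta rings (Psmb genes), of which Psmb5, Psmb6 and Psmb7 carry the proteolytic sites. Interferon signalling replaces these with the immunoproteasome subunits Psmb8, Psmb9 and Psmb10, which favour the peptides presented on MHC class I. The 19S cap recognises and unfolds substrates with a ring of ATPases (Psmc genes) and a set of non-ATPase scaffold, receptor and lid subunits (most Psmd genes). Alternative activators are PA28 (Psme1, Psme2 and Psme3) and PA200 (Psme4), Psmf1 encodes an inhibitor, and the Psmg genes with Psmd5 and Psmd9 encode assembly chaperones. The transcription factor Nfe2l1 raises many subunit genes together when proteasome activity falls short, through antioxidant response elements in their promoters.

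ATAC-seq, which counts transposase insertions in open DNA, was run on liver nuclei that were immunoprecipitated from 22 male HEP-INTACT mice, in which the nuclei of hepatocytes carry a tag for purification. All animals, controls included, carried this tagging system, and the promoter that drives it is not stated in the labels. Disease was induced by a fructose, palmitate and cholesterol diet (FPC) over 20 weeks or by CDAHFD, a high-fat diet that lacks choline and supplies defined amino acids, over 7 weeks. Controls of each diet ate low-fat chow of matched duration. The livers on each disease diet were split by histology into mild disease, with fat and inflammation, and advanced disease, with fibrosis as well, so stage was assigned after the fact and not given as a treatment. The groups were FPC control, mild and advanced with 4, 4 and 3 libraries, and CDAHFD control, mild and advanced with 4, 4 and 3 libraries. The titles carry a different number for each library, which was taken as 1 mouse each. No label gives a batch, an age or a strain.

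Libraries held between 3785115 and 9328987 counts in peaks. The FPC controls had 3785115 to 6038914 and the FPC advanced libraries 5971479 to 7135618, so depth was mostly lower in that control group. The 8 hepatocyte markers examined all had peaks. Their summed accessibility was 1622 to 1796 CPM in FPC controls and 1199 to 1411 CPM in FPC advanced. On the CDAHFD these sums were 1593 to 1741 and 1304 to 1425 CPM. CPM are counts scaled to a normalized library total of 1e+06, as defined under the processing below. Of 10 leukocyte markers 4 had a peak, with Clec4f, Cd68, Lyz2, Cd3e and Cd79a among those with none, and their sum was 59.2 to 71.2 CPM in FPC controls, 49.0 to 49.3 CPM in FPC advanced, 63.3 to 73.4 CPM in CDAHFD controls and 49.8 to 54.8 CPM in CDAHFD advanced. Within this sum Ptprc and Itgam fell and Csf1r rose on both diets, by edgeR's adjusted p. Csf1r went from 7.75 ± 2.40 to 12.0 ± 1.87 CPM on FPC and from 6.45 ± 1.66 to 12.6 ± 1.32 CPM on the CDAHFD (SD, control to advanced). Adgre1 rose on FPC, from 5.85 ± 0.574 to 8.40 ± 0.918 CPM, and was 7.53 ± 0.651 and 7.99 ± 1.03 CPM on the CDAHFD. Of 6 stellate cell markers 2 had a peak (Lrat, Dcn, Col1a2 and Pdgfrb had none), with sums of 26.9 to 43.8 and 47.1 to 65.3 CPM in FPC control and advanced libraries and 37.6 to 50.8 and 44.8 to 57.4 CPM on the CDAHFD. Of 6 endothelial markers 5 had a peak, with sums of 133.1 to 154.1 and 128.7 to 134.8 CPM on FPC, and 154.6 to 195.4 and 128.6 to 157.7 CPM on the CDAHFD. Of 6 cholangiocyte markers 5 had a peak (Cftr had none), with sums of 163.6 to 181.9 and 287.3 to 352.8 CPM on FPC, and 166.7 to 217.8 and 245.5 to 263.3 CPM on the CDAHFD. By edgeR's adjusted p, 5 of these 5 were higher in advanced FPC livers and 4 on the CDAHFD (30.7% and 28.5% of all genes), and 0 were lower. Their median log2 fold changes were 2.72 and 2.15. The part of these markers in the proteasome results was not tested. In bulk nuclei, fewer cells with an open site and a less open site in each cell cannot be told apart.

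The promoters of the family were searched for the letters that known regulators bind, and the matches to 1 of these motifs are printed here before the values. RefSeq (GRCm38.p6, the mm10 build) gave 42 start windows of 300 bases for 39 members, from 250 bases before to 50 after the start. No window was found for Psmb1, Psmb2, Psmb7, Psmc3, Psmd3, Psmd7 and Psmg2. Both strands were searched for the core of the antioxidant response element (TGACNNNGC), an ETS factor core (CCGGAAG), the CCAAT box (CCAAT), the interferon gamma activated sequence (TTCNNNGAA) and an IRF factor pair (GAAANNGAA). The antioxidant core lay in 6 of 42 windows (14.3%), against 12.4% of all 32851 windows and 15.1% of the 11911 windows that overlapped a peak, so its share in the family was near that of promoters at large. The 6 matches are shown on the strand of the gene, 5′ to 3′, with the matched letters in capitals, because this element is the binding site of Nfe2l1 and Nfe2l2.

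Psmb5 (chr14:54618023-54618052, minus strand): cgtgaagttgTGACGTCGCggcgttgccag
Psmb6 (chr11:70525327-70525356, plus strand): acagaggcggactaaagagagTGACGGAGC
Psmc6 (chr14:45329587-45329616, plus strand): ccagccagtaGCTAAGTCAggcattgctca
Psmd9 (chr5:123228149-123228178, plus strand): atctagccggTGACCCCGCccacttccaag
Psmd12 (chr11:107479278-107479307, plus strand): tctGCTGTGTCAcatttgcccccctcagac
Psme4 (chr11:30771758-30771787, plus strand): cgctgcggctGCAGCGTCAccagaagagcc

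The matches in Psmb5, Psmb6 and Psmd9 read TGAC on the strand of the gene, and those in Psmc6, Psmd12 and Psme4 read it on the opposite strand. The match in Psmb6 starts 9 bases before the start and the one in Psmd12 247 bases before it. The ETS core was the commonest of the longer motifs, in 16 of 42 windows (38.1%) against 8.9% of all windows and 19.5% of those overlapping a peak. Of these, Psmd2, Psmd12 and Psmd13 are shown as examples of 19S subunits with changed accessibility below. The core also lay at the 19S genes Psmd11 (called higher on FPC) and Psmc2 (called higher on the CDAHFD). It lay as well at Psmd4, Psmd6, Psmc1 and Psmc6, whose sums were not called in advanced livers.

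Psmd2 (chr16:20651616-20651645, plus strand): ccgcagggcgCTTCCGGtctggaggacaac
Psmd12 (chr11:107479498-107479527, plus strand): gatgagcgggcgaCTTCCGGtgcgagtgac
Psmd13 (chr7:140882378-140882407, plus strand): gcccgcggtgCCGGAAGtgagcgagcactt

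CCAAT lay in 31.0% of the windows (37.4% of all and 39.4% of those over a peak), the interferon gamma activated sequence in 7.1% (8.3% and 6.8%) and the IRF pair in 16.7% (8.6% and 6.5%). Psmb8 held the activated sequence 97 bases before its start, and Psme1 held the IRF pair 10 bases after its start, on the opposite strand. They are shown here because both genes belong to the interferon-inducible group. The activated sequence also lay at Psmd2 and Psmg1, and the IRF pair at Psmb3, Psmb4, Psmc2, Psmd4, Psmd9 and Psmg4. The windows of Psmb9, Psmb10 and Psme2, of the same inducible group, held neither.

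Psmb8 (chr17:34198088-34198117, plus strand): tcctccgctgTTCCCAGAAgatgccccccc
Psme1 (chr14:55578494-55578523, plus strand): gagctgtgctTTCGCTTTCccttcccgctg

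A letter match is a description of the window and does not show that a factor is bound there. Complete upstream stretches, the 250 bases before the start, are given for Psmb6, a catalytic core subunit, and Psmd12, a 19S lid subunit, since both promoters opened in both diets. Capitals mark the antioxidant core in both and the ETS core near the 3′ end of the Psmd12 stretch. The antioxidant core of Psmd12 lies outside the only peak of that gene (chr11:107479319-107479519).

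Psmb6 (chr11:70525107-70525356, plus strand): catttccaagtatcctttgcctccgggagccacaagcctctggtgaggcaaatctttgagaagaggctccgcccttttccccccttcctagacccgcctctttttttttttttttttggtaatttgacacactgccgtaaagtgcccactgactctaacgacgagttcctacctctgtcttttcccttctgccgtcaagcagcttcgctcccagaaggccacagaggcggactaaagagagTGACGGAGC
Psmd12 (chr11:107479278-107479527, plus strand): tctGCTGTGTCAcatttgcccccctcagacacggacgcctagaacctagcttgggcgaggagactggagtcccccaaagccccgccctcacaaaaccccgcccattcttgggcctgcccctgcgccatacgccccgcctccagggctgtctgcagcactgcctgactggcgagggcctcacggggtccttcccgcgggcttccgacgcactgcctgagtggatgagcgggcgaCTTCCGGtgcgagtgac

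In advanced FPC livers, summed accessibility rose at 18 of the 46 members and fell at 7 (edgeR quasi-likelihood test, Benjamini-Hochberg adjusted p under 0.05 over all genes). Across all genes tested, 30.7% rose and 30.5% fell in that comparison. The median log2 fold change of the members was 0.18, and that of all genes 0.01. Only Psmd8, Psmd3 and Psme3 changed by more than 1.5-fold, against 24.5% of all genes, so the changes within the family were mostly small. In advanced CDAHFD livers 11 members rose and 9 fell (28.5% and 30% of all genes), with a median of 0.08 against -0.01 for all genes. The 11 included Psmc3ip (0.25), which is no subunit and which DESeq2 did not call. Psmd8 and Psmd3 were the 2 members past 1.5-fold there (22% of all genes).

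**Figure D1:**
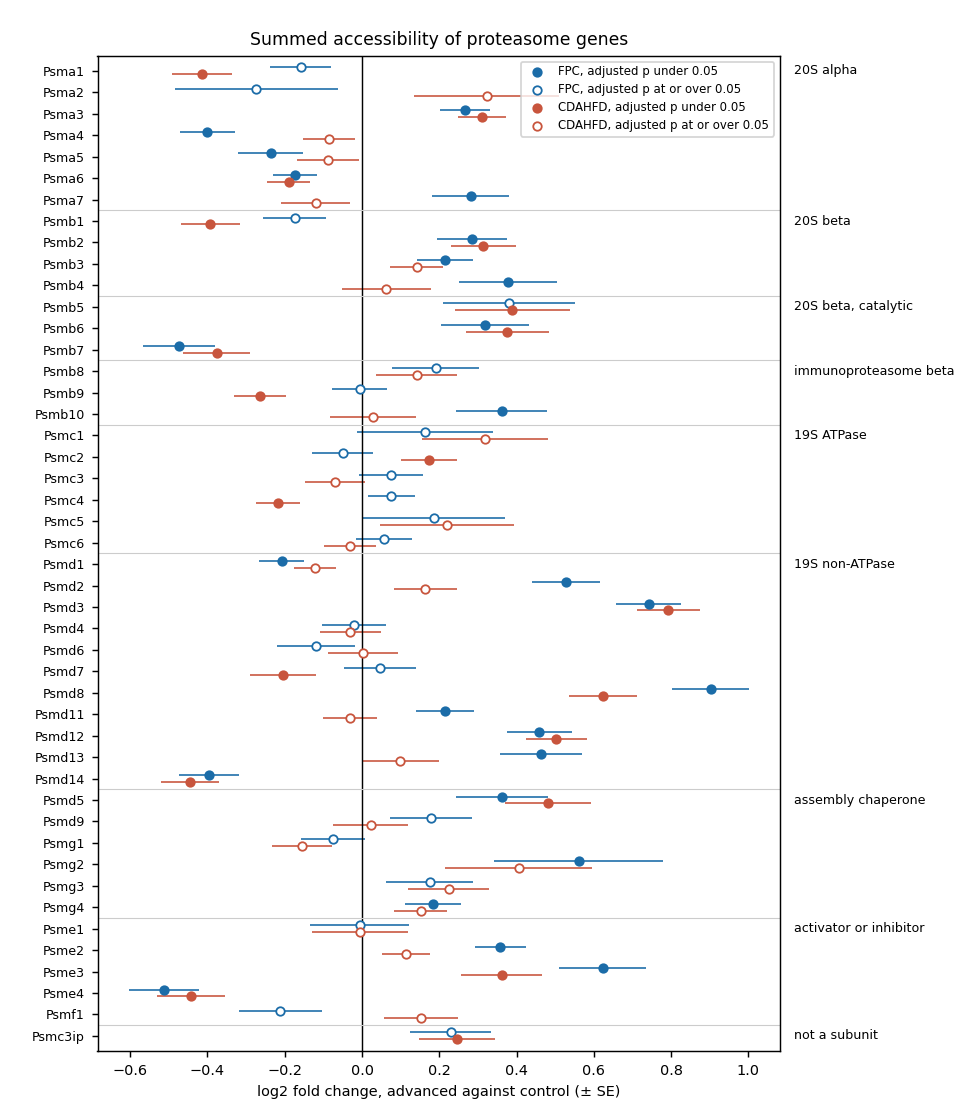
Log2 fold change of summed accessibility (horizontal axis, ± SE) for the 46 members, ordered by role, in advanced against control livers on FPC (blue) and CDAHFD (red). Filled points passed the edgeR test. Psmd3 and Psmd8 lie farthest to the right, and Psme4, Psmd14 and Psmb7 lie left of 0 on both diets.

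The scaling of the libraries bears on these counts. With factors taken from all peaks, an alternative added after seeing the data, the median gene shifted by 0.10 in advanced FPC livers and the calls became 24 higher and 4 lower among the members (38.7% and 23.2% of all genes). With factors from promoter peaks, the median gene shifted by -0.09 and the calls became 9 higher and 10 lower (23.4% and 37.5%). On the CDAHFD the same 2 scalings gave 17 higher and 7 lower (33.5% and 24.1%) and 8 higher and 11 lower (25.1% and 34.6%). The member median was 0.27 against 0.10 for all genes, and 0.08 against -0.09, under these FPC scalings. A change of library factors shifts all genes nearly alike, so it could not alter this gap.

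Mild livers showed the same kind of picture. On FPC, 15 members rose and 5 fell in mild against control (19.7% and 20.6% of all genes), with a median of 0.17 for the members and 0.00 for all genes. The 5 lower calls were 2 without FPC control library 1, FPC control library 3, FPC mild library 1 or FPC mild library 4, and 3 without FPC mild library 3. On the CDAHFD, 10 members rose and 7 fell (22.1% and 23.3%), with a median of 0.04 against -0.01.

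Few members separated advanced from mild livers. On FPC, Psmd2, Psmd3, Psmd8 and Psmg4 were higher in advanced than in mild livers and Psma4 and Psmb9 were lower, 4 and 2 of 46 (15.4% and 16.1% of all genes). The 4 higher calls fell to 1 without FPC advanced library 2 and to 2 without library 3, and the 2 lower calls became 1 without FPC advanced library 2 and 4 without FPC mild library 1. On the CDAHFD, no member was called higher and 1, Psmb9, was called lower (9.33% and 8.05% of all genes). At an unadjusted p under 0.05, 3 members were higher and 3 lower there, and DESeq2 called 0 in either direction. The Psmb9 call (-0.19 ± 0.07, edgeR adjusted p = 0.0491) was lost without CDAHFD mild library 1, 2 or 4 and without any 1 of the 3 advanced libraries.

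The 20S alpha subunits form the outer rings of the core and its gate. In advanced FPC livers 2 of 7 rose (Psma3 and Psma7) and 3 fell (Psma4, Psma5 and Psma6), and on the CDAHFD 1 rose (Psma3) and 2 fell (Psma1 and Psma6). Of all genes 30.7% rose and 30.5% fell on FPC, and 28.5% and 30% on the CDAHFD. The counts of this and each later role stand beside these shares, and no role was tested against them. Psma3 measured 83.8, 84.7, 88.6 and 96.8 CPM in FPC controls and 108, 115 and 96.0 CPM in advanced livers. In CDAHFD livers it measured 93.8, 89.6, 87.9 and 88.2 CPM in controls and 112, 113 and 109 CPM in advanced livers, where the groups did not overlap. The log2 fold changes of Psma3 were 0.27 ± 0.07 (SE, edgeR adjusted p = 0.00117) and 0.31 ± 0.06 (adjusted p = 0.000149). The FPC groups overlapped by 1 advanced library. With promoter peaks alone the FPC change of Psma3 was 0.15 and was not called (edgeR adjusted p = 0.101).

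Psma4 moved on FPC, where its sum was 89.0, 92.0, 92.1 and 81.8 CPM in controls, 85.5, 85.7, 85.3 and 78.0 CPM in mild and 68.1, 68.1 and 65.7 CPM in advanced livers. All 3 advanced libraries lay below every control and mild library, with a log2 fold change against control of -0.40 ± 0.07 (edgeR adjusted p = 3.42e-05). In CDAHFD advanced livers it was 72.8, 83.3 and 78.9 CPM against 85.2, 88.7, 81.2 and 76.0 CPM in controls, and the groups overlapped. The Psma4 promoter peak, centred at -151 bp from the start (chr9:54950608-54950808), had a log2 fold change of -0.12 ± 0.09 on FPC (adjusted p = 0.25). The peaks of Psma4 that fell were the one at -8568 bp, in an intron of the neighbouring gene Hykk (chr9:54942191-54942391, -0.62 ± 0.12, adjusted p = 7.64e-05), and a smaller one at -1154 bp (-0.59 ± 0.20, adjusted p = 0.0166).

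Psma1 had the highest sum of the family, 189.3 CPM on average over 9 peaks, of which 1 is at the promoter. Its sum was 212, 187, 234 and 249 CPM in CDAHFD controls and 164, 154 and 179 CPM in advanced livers, which did not overlap (-0.41 ± 0.08, edgeR adjusted p = 7.33e-05). On FPC it was 197, 196, 198 and 209 CPM against 187, 168 and 183 CPM, also without overlap but short of the threshold (-0.16 ± 0.08, adjusted p = 0.0857). The Psma1 promoter peak (chr7:114276098-114276298, at -82 bp) went the other way, at 0.54 ± 0.12 on FPC and 0.27 ± 0.11 on the CDAHFD (adjusted p = 0.000382 and 0.0365). The peaks that fell on the CDAHFD lay between -47198 and -15730 bp, the latter with -1.16 ± 0.21 (adjusted p = 4.18e-05). With peaks within 10 kb alone the change of Psma1 had the opposite sign, 0.42 on FPC (adjusted p = 0.00306) and 0.20 on the CDAHFD (adjusted p = 0.103).

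Psma6 had the most peaks, 13, and they did not move together. A peak 44535 bp after the start (chr12:55443260-55443460, intergenic) rose by 2.50 ± 0.23 on FPC and 2.04 ± 0.20 on the CDAHFD (edgeR adjusted p = 1.12e-09 and 3.02e-09). A peak in intron 6 at 16639 bp changed by -1.28 ± 0.19 and -1.37 ± 0.19 (adjusted p = 3.78e-06 and 5.71e-07). The promoter peak at -58 bp stood at 0.01 ± 0.09 and -0.15 ± 0.09 (adjusted p = 0.947 and 0.148). These peaks of Psma6 were chosen after their values were seen.

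Of the 4 constitutive 20S beta subunits that carry no proteolytic site, Psmb2, Psmb3 and Psmb4 rose in advanced FPC livers and none fell (1 was lower at an unadjusted p under 0.05, and DESeq2 called 0 lower). On the CDAHFD Psmb2 rose and Psmb1 fell. Psmb1 was 63.2, 61.8, 59.2 and 65.8 CPM in CDAHFD controls and 45.5, 45.7 and 51.5 CPM in advanced livers, without overlap (-0.39 ± 0.08, edgeR adjusted p = 0.000111). Its FPC change was -0.17 ± 0.08 (adjusted p = 0.0699), which passed the threshold without FPC control library 4 or FPC advanced library 2 (adjusted p = 0.0339 and 0.0429). The Psmb1 promoter peak stood at 0.03 ± 0.11 on the CDAHFD (adjusted p = 0.836). Its peak in intron 4, 15375 bp after the start, fell there by 1.41 ± 0.25 (adjusted p = 3.26e-05), and the call on the sum was lost with promoter peaks alone (-0.09, adjusted p = 0.469) and with peaks within 10 kb (-0.04, adjusted p = 0.767).

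Among the catalytic subunits, Psmb6 (the caspase-like site) rose on both diets, Psmb5 (the chymotrypsin-like site) rose on the CDAHFD, and the sum of Psmb7 (the trypsin-like site) fell on both. The Psmb5 groups on the CDAHFD overlapped, at 9.48, 8.48, 8.24 and 7.02 CPM in controls and 12.3, 11.5 and 8.80 CPM in advanced livers. DESeq2 called 1 of these 3 subunits higher on the CDAHFD, where edgeR called 2. The Psmb6 promoter peak (chr11:70525209-70525409, at -48 bp) contains the antioxidant core printed above and was named after its values were seen. It measured 28.3, 17.0, 26.6 and 28.3 CPM in FPC controls, 36.2, 31.2, 33.6 and 30.8 CPM in mild and 40.1, 44.4 and 42.0 CPM in advanced livers. CDAHFD libraries gave 22, 23.8, 28.0 and 24.1 CPM, then 34.4, 34.0, 36.3 and 36.5 CPM, then 39.7, 47.1 and 39.5 CPM. Every mild and advanced library lay above every control of the same diet. The log2 fold changes in advanced livers were 0.74 ± 0.11 and 0.77 ± 0.11 (edgeR adjusted p = 4.33e-06 and 6.37e-07).

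The Psmb7 sum was 86.4, 68.2, 72.4 and 68.4 CPM in FPC controls and 49.1, 53.7 and 56.6 CPM in advanced livers (-0.47 ± 0.09, edgeR adjusted p = 0.000129). The CDAHFD series read 80.1, 81.8, 72.7 and 75.4 CPM and 65.2, 52.9 and 60.0 CPM (-0.38 ± 0.09, adjusted p = 0.000698). Neither diet's groups overlapped. The peak with the highest mean level, 18.3 CPM, lay in intron 6, 36020 bp after the start (chr2:38607786-38607986), and changed by -0.79 ± 0.14 and -0.51 ± 0.13 (adjusted p = 3.78e-05 and 0.00157). The Psmb7 promoter peak at -66 bp changed by -0.17 ± 0.16 and -0.40 ± 0.15 (adjusted p = 0.385 and 0.0219). With peaks within 10 kb alone the Psmb7 sum changed by 0.11 and 0.17 (adjusted p = 0.522 and 0.248). A single Psmb7 peak rose steeply. It lies at -3953 bp (chr2:38647759-38647959, intergenic) and was nearly closed in controls, at 0.24, 0.27, 0.34 and 0.51 CPM on FPC and 0.99, 0.15, 0.12 and 0.34 CPM on the CDAHFD. In advanced livers it measured 2.02, 4.13 and 4.46 CPM on FPC and 5.77, 6.01 and 5.97 CPM on the CDAHFD, with mild libraries between 0.36 and 1.67 CPM. Its log2 fold changes were 3.33 ± 0.52 and 3.85 ± 0.41 (adjusted p = 6.78e-06 and 8.67e-09), the largest of the 134 member peaks on both diets, at a low level.

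**Figure D2:**
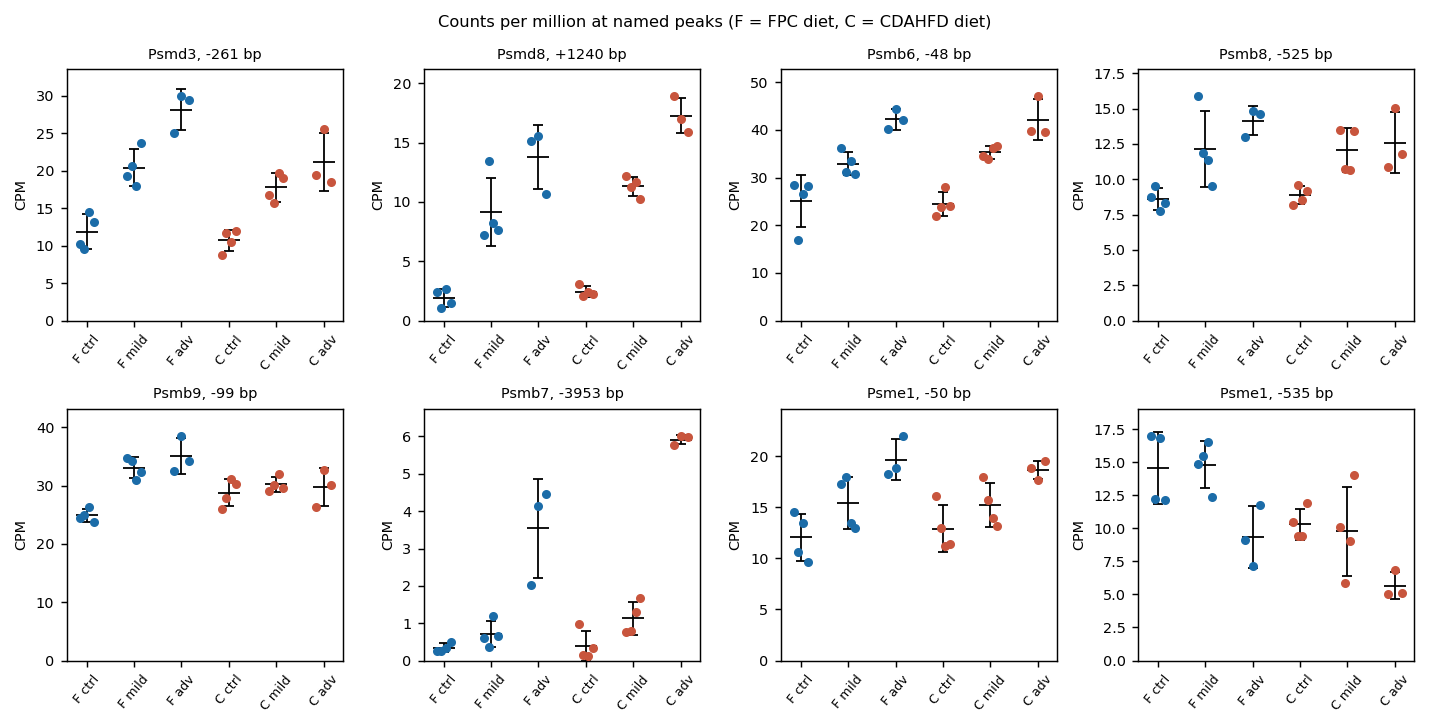
CPM at 8 named peaks, 1 point per library, with group mean (bar) and SD (whiskers), and the distance from the gene's start above each panel. The advanced libraries lie above all controls in the panels of Psmd3, Psmd8, Psmb6, Psmb8, Psmb7 and the Psme1 peak at -50 bp, and below all controls at the Psme1 peak at -535 bp. At Psmb9 that holds on FPC and not on the CDAHFD.

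The immunoproteasome subunits Psmb8 and Psmb9 lie side by side in the MHC region of chromosome 17, and Psmb10 lies on chromosome 8. Psmb8 sums rose in mild livers of both diets (0.29 ± 0.11 on FPC and 0.30 ± 0.10 on the CDAHFD, edgeR adjusted p = 0.0345 and 0.0137). In advanced livers they stood at 0.19 ± 0.11 and 0.14 ± 0.10 (adjusted p = 0.146 and 0.251). Library sums of Psmb8 were 31.7, 29.8, 29.2 and 27.8 CPM in FPC controls, 41.5, 36.1, 34.6 and 32.9 CPM in mild and 31.2, 34.8 and 35.1 CPM in advanced livers. With the CDAHFD they stood at 31.3, 32.9, 29.8 and 28.9 CPM, 44.9, 33.0, 31.3 and 41.0 CPM, and 32.1, 34.7 and 35.2 CPM. The mild groups had the highest single libraries on both diets.

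Both promoter peaks of Psmb8 rose in advanced livers while its upstream peak fell. The peak at -525 bp (chr17:34197570-34197770) went from 8.72, 9.54, 7.73 and 8.35 CPM to 13.0, 14.8 and 14.6 CPM on FPC and from 8.19, 9.57, 8.55 and 9.17 CPM to 10.9, 15 and 11.8 CPM on the CDAHFD. These are log2 fold changes of 0.73 ± 0.17 and 0.49 ± 0.16 (edgeR adjusted p = 0.00062 and 0.0095). The peak at 130 bp, in the exon 1 untranslated region, changed by 0.70 ± 0.22 and 0.71 ± 0.21. The peak at -3292 bp (chr17:34194803-34195003), in exon 10 of the neighbouring gene Tap1, fell by 0.67 ± 0.15 and 0.47 ± 0.14 (adjusted p = 0.000548 and 0.00477). With promoter peaks alone the Psmb8 sum passed the test on both diets, at 0.53 and 0.46 (adjusted p = 0.00408 and 0.00586).

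Psmb9 was higher in mild than in control FPC livers (0.23 ± 0.07, edgeR adjusted p = 0.00826), at 61.4, 59.0, 63.1 and 55.6 CPM in controls and 75.6, 66.1, 74.3 and 65.6 CPM in mild livers. In advanced FPC livers its sum was 61.0, 55.8 and 62.5 CPM, all within the range of the controls (-0.01 ± 0.07, adjusted p = 0.945). Under the CDAHFD it was 60.1, 63.4, 65.9 and 65.6 CPM in controls, 61.6, 58.6, 58.2 and 63.9 CPM in mild and 49.9, 55.3 and 54.6 CPM in advanced livers, a fall of 0.26 ± 0.07 (adjusted p = 0.00178). The Psmb9 promoter peak at -99 bp (chr17:34187329-34187529) is shared with Tap1, a peptide transporter of the same pathway that starts 226 bp away on the other strand. That peak went from 24.5, 24.9, 26.4 and 23.8 CPM to 32.5, 38.5 and 34.2 CPM in advanced FPC livers (0.49 ± 0.09, adjusted p = 6.22e-05). CDAHFD libraries gave 26.0, 27.8, 31.1 and 30.2 CPM in controls and 26.3, 32.7 and 30.2 CPM in advanced livers (0.03 ± 0.09, adjusted p = 0.854). A peak at the annotated end of Psmb9, 5973 bp after the start, changed by -0.93 ± 0.29 and -1.45 ± 0.29 (adjusted p = 0.00813 and 0.000116). With promoter peaks alone the Psmb9 sum rose on FPC (0.30, adjusted p = 0.00342) and its CDAHFD fall was no longer called (-0.09, adjusted p = 0.33).

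Psmb10 rose in advanced FPC livers, from 36.3, 27.9, 37.7 and 27.5 CPM to 37.5, 48.8 and 39.4 CPM (0.36 ± 0.12, edgeR adjusted p = 0.0107). The groups overlapped, and without FPC advanced library 2 the change was 0.23 with an adjusted p of 0.122. The call was also lost with TMM from promoter peaks (0.27, edgeR adjusted p = 0.0595) and with promoter peaks alone (0.29, adjusted p = 0.378). On the CDAHFD Psmb10 was 34.4, 41.2, 33.9 and 31.9 CPM in controls and 37.1, 35.6 and 35.2 CPM in advanced livers (0.03 ± 0.11, adjusted p = 0.848). Its intron 4 peak at 1292 bp (chr8:105937000-105937200, 24.1 CPM on average) was larger than its promoter peak (6.9 CPM) and changed by 0.45 ± 0.11 on FPC (adjusted p = 0.00136). The promoter peak of Psmb10 changed by 0.49 ± 0.29 on FPC (edgeR adjusted p = 0.15).

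The 6 ATPases of the 19S base unfold substrates and open the core. edgeR called 0 of 6 sums in either direction in advanced FPC livers, with 0 at an unadjusted p under 0.05 and 0 by DESeq2, and their median log2 fold change was 0.08. On the CDAHFD Psmc2 rose (0.17 ± 0.07) and Psmc4 fell (-0.22 ± 0.06, edgeR adjusted p = 0.00221). DESeq2 called 0 of the 6 higher and 1 lower there. The Psmc2 promoter peak at -48 bp was not called on the CDAHFD (0.19 ± 0.10, edgeR adjusted p = 0.0885). Its peak at 1435 bp was called higher (0.31 ± 0.12, adjusted p = 0.0331). Psmc4 was 75.5, 76.4, 78.9 and 75.0 CPM in FPC controls and 81.7, 82.6 and 77.7 CPM in advanced livers, with mild livers highest at 88.5, 84.7, 93.3 and 84.2 CPM. In CDAHFD livers it measured 95.8, 89.2, 96.5 and 84.6 CPM in controls, 81.0, 82.3, 81.1 and 85.5 CPM in mild and 78.9, 83.5 and 74.3 CPM in advanced livers. The FPC controls lay below every CDAHFD control.

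Psmc4 was the only member called for a difference between the diets in the change from control. The change on the CDAHFD minus that on FPC was -0.29 ± 0.08 in advanced livers (edgeR adjusted p = 0.0413) and -0.35 ± 0.08 in mild livers (adjusted p = 0.0105), so 1 member was lower and 0 higher in each of these 2 tests. Across all genes 2.81% were higher and 1.99% lower for the advanced difference, and 2.78% and 2.5% for the mild one. At an unadjusted p under 0.05 the members numbered 4 higher and 9 lower in the advanced test and 2 and 7 in the mild test, and DESeq2 called 0 and 0, and 0 and 1. The advanced call for Psmc4 was lost in 10 of the 14 fits that left out 1 library (adjusted p from 0.0593 to 0.112), namely those without FPC control 1, 2, 3 or 4, FPC advanced 1 or 2, CDAHFD control 1 or 3, and CDAHFD advanced 1 or 3. The Psmc4 promoter peak at -72 bp rose on FPC (0.37 ± 0.07, adjusted p = 0.000113) and stood at 0.03 ± 0.07 on the CDAHFD (adjusted p = 0.802).

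Among the non-ATPase subunits of the 19S cap, 6 of 11 rose in advanced FPC livers (Psmd2, Psmd3, Psmd8, Psmd11, Psmd12 and Psmd13) and 2 fell (Psmd1 and Psmd14). On the CDAHFD 3 rose (Psmd3, Psmd8 and Psmd12) and 2 fell (Psmd7 and Psmd14). The shares of all genes were 30.7% and 30.5% on FPC and 28.5% and 30% on the CDAHFD, so the CDAHFD counts were not above them. Psmd3, Psmd8, Psmd11, Psmd12 and Psmd13 encode subunits of the lid, Psmd1 and Psmd2 the scaffolds of the base, and Psmd14 the lid deubiquitinase that removes ubiquitin chains from substrates.

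Psmd3 (a lid subunit) was 29.4, 29.2, 33.5 and 34.7 CPM in FPC controls, 44.5, 46.8, 41.6 and 45.4 CPM in mild and 50.4, 54.1 and 55.0 CPM in advanced livers. For the CDAHFD the sums were 25.2, 26.1, 27.3 and 25.3 CPM, 39.5, 37.2, 44.1 and 42.1 CPM, and 44.0, 50.3 and 41.4 CPM. No control overlapped a diseased library, and the FPC advanced libraries lay above all mild ones. The log2 fold changes in advanced livers were 0.74 ± 0.08 and 0.79 ± 0.08, or 1.67-fold and 1.73-fold (edgeR adjusted p = 7e-08 and 1.39e-08). Both Psmd3 peaks are at the promoter. The one at -261 bp (chr11:98682193-98682393) rose from 10.2, 9.54, 14.5 and 13.2 CPM to 25.0, 29.9 and 29.4 CPM on FPC and from 8.76, 11.7, 10.5 and 11.9 CPM to 19.4, 25.5 and 18.5 CPM on the CDAHFD (1.23 ± 0.15 and 0.98 ± 0.15).

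Psmd8 (a lid subunit) was 28.8, 29.2, 31.8 and 26.9 CPM in FPC controls, 39.6, 53.5, 43.2 and 45.8 CPM in mild and 51.6, 57.4 and 55.4 CPM in advanced livers. The CDAHFD series read 37.3, 33.2, 42.6 and 39.1 CPM, 54.2, 51.4, 47.8 and 46.2 CPM, and 61.6, 56.4 and 57.8 CPM. Its sum rose 1.87-fold on FPC and 1.54-fold on the CDAHFD (log2 0.90 ± 0.10 and 0.62 ± 0.09, edgeR adjusted p = 4.57e-08 and 1.84e-06). Its peak in intron 1, 1240 bp after the start (chr7:29179333-29179533), changed most. That peak measured 2.42, 1.06, 2.69 and 1.52 CPM in FPC controls, 7.23, 13.5, 8.26 and 7.67 CPM in mild and 15.2, 15.5 and 10.7 CPM in advanced livers. With the CDAHFD it stood at 3.11, 2.09, 2.38 and 2.21 CPM, 12.2, 11.2, 11.7 and 10.3 CPM, and 18.9, 17.0 and 15.9 CPM. Every diseased library lay far above every control. The log2 fold changes of the intron peak were 2.77 ± 0.25 and 2.81 ± 0.22 (adjusted p = 1.42e-09 and 3.2e-11). The Psmd8 promoter peak rose on FPC (0.65 ± 0.10, adjusted p = 8.46e-06) and missed the threshold on the CDAHFD (0.21 ± 0.09, adjusted p = 0.0537). With promoter peaks alone the CDAHFD change of Psmd8 was 0.095 (adjusted p = 0.372).

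Psmd12 (a lid subunit) has a single peak, at -109 bp (chr11:107479319-107479519). The sum of Psmd12 was 32.3, 33.0, 31.6 and 32.0 CPM in FPC controls, 42.0, 38.6, 42.4 and 38.0 CPM in mild and 38.6, 48.5 and 45.1 CPM in advanced livers. Under the CDAHFD it was 28.1, 28.6, 34.1 and 30.1 CPM, 38.6, 38.4, 41.7 and 40.9 CPM, and 41.8, 43.6 and 43.7 CPM. All diseased libraries lay above all controls, with log2 fold changes of 0.46 ± 0.08 and 0.50 ± 0.08 in advanced livers (edgeR adjusted p = 5.68e-05 and 8.11e-06).

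Psmd2 (a base scaffold subunit) rose on FPC, from 23.6, 22.2, 23.3 and 23.3 CPM in controls over 25.6, 27.1, 25.8 and 27 CPM in mild to 35.2, 32.7 and 32.3 CPM in advanced livers (0.53 ± 0.09, edgeR adjusted p = 1.58e-05). The 3 FPC groups did not overlap. CDAHFD libraries gave 26.4, 29.1, 28.4 and 24.9 CPM in controls, 33.0, 27.2, 26.8 and 27.2 CPM in mild and 30.0, 31.0 and 30.8 CPM in advanced livers (0.16 ± 0.08, adjusted p = 0.0831, or 0.047 without CDAHFD control library 3). The difference of the 2 changes was -0.36 ± 0.12 (adjusted p = 0.076).

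Psmd14 fell on both diets. It was 59.3, 70.7, 73.0 and 72.6 CPM in FPC controls, 46.8, 51.3, 54.7 and 54.4 CPM in mild and 53.8, 51.6 and 52.0 CPM in advanced livers. In CDAHFD livers it measured 65.0, 65.9, 64.5 and 61.0 CPM, 58.0, 52.2, 53.6 and 47.8 CPM, and 49.4, 47.7 and 44.0 CPM. Controls lay above all diseased libraries on both diets, with log2 fold changes of -0.40 ± 0.08 and -0.44 ± 0.08 in advanced livers (edgeR adjusted p = 0.000125 and 2.02e-05). Its promoter peaks at -109 and 36 bp both fell on both diets, by 0.25 ± 0.11 and 0.27 ± 0.11 on FPC and 0.35 ± 0.10 and 0.31 ± 0.10 on the CDAHFD. A smaller intergenic peak of Psmd14 at -44059 bp changed by -0.80 ± 0.30 and -1.20 ± 0.30 (edgeR adjusted p = 0.0262 and 0.00149). The family had 3 falling promoter peaks on FPC and 4 on the CDAHFD.

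Of the 6 assembly chaperones, Psmd5, Psmg2 and Psmg4 rose in advanced FPC livers and Psmd5 rose on the CDAHFD, and edgeR called 0 lower on either diet (0 at an unadjusted p under 0.05 and 0 by DESeq2). Psmd5, a chaperone of the ATPase ring, changed by 0.36 ± 0.12 and 0.48 ± 0.11 (edgeR adjusted p = 0.011 and 0.000704). Psmg3, a chaperone of the alpha ring, rose in mild livers of both diets by 0.44 ± 0.11 and 0.44 ± 0.10 (adjusted p = 0.00225 and 0.000576). In advanced livers it stood at 0.18 ± 0.11 and 0.22 ± 0.10, neither past the threshold.

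Among the activators and the inhibitor, Psme3 rose on both diets, Psme2 rose on FPC, Psme4 fell on both, and Psme1 and Psmf1 were not called in advanced livers. Psme3 (PA28 gamma, the nuclear activator) went from 13.8, 17.4, 15.8 and 16.7 CPM over 23.7, 21.7, 20.4 and 17.9 CPM in mild to 25.8, 25.2 and 22.5 CPM in advanced FPC livers (0.62 ± 0.11, edgeR adjusted p = 4.56e-05). On the CDAHFD it went from 15.1, 17.0, 19 and 15.8 CPM over 21.2, 21.3, 19 and 21.5 CPM to 20.7, 22.6 and 21.7 CPM (0.36 ± 0.10, adjusted p = 0.0048). Advanced and control libraries did not overlap on either diet. Psme4 (PA200) was 53.9, 57.4, 62.7 and 58.8 CPM in FPC controls, 42.6, 40.8, 41.2 and 45.2 CPM in mild and 36.7, 40.6 and 45.4 CPM in advanced livers. For the CDAHFD the sums were 53.0, 61.1, 48.1 and 51.5 CPM, 41.7, 45.5, 46.0 and 36.9 CPM, and 39.7, 38.0 and 39.9 CPM. All controls lay above all diseased libraries, with changes of -0.51 ± 0.09 and -0.44 ± 0.09 in advanced livers (adjusted p = 4.08e-05 and 0.00014). The Psme4 promoter peak at -48 bp was not called (-0.11 ± 0.11 and -0.20 ± 0.11, edgeR adjusted p = 0.42 and 0.116). An intergenic peak of Psme4 at -22674 bp changed by -1.12 ± 0.20 and -0.80 ± 0.19 (adjusted p = 3.88e-05 and 0.000811).

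The 2 subunits of the interferon-inducible PA28 ring differed in shape. Psme2 has 1 peak, at 21 bp (chr14:55590980-55591180), which at 57.2 CPM on average was the highest promoter peak of the family. The Psme2 sum was 55.0, 57.7, 59.8 and 59.1 CPM in FPC controls, 74.2, 71.4, 60.7 and 70.5 CPM in mild and 74.9, 76.4 and 71.7 CPM in advanced livers (0.36 ± 0.07, edgeR adjusted p = 5.37e-05). The CDAHFD series read 59.3, 63.9, 65.0 and 64.8 CPM in controls, 66.1, 66.9, 66.4 and 63.9 CPM in mild and 67.9, 72.0 and 65.8 CPM in advanced livers (0.11 ± 0.06, adjusted p = 0.115). With TMM factors taken from all peaks and applied to the gene sums, Psme2 passed the threshold on the CDAHFD (0.18, adjusted p = 0.0259, the lowest of the alternatives, which ranged up to 0.372). In the separate fit of single peaks the same counts gave 0.18 ± 0.06 (adjusted p = 0.0207).

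The Psme1 sum was level, at -0.01 ± 0.13 and -0.01 ± 0.12 in advanced livers (edgeR adjusted p = 0.97 and 0.974), while 2 of its 3 promoter peaks moved in opposite directions. Library sums were 44.7, 31.7, 43.0 and 31.1 CPM in FPC controls, 44.5, 44.9, 40.0 and 34.2 CPM in mild and 36.3, 33.6 and 43.8 CPM in advanced livers, and 29.1 to 37.8 CPM in all CDAHFD libraries. The peak at -50 bp (chr14:55578344-55578544) rose from 14.5, 10.6, 13.4 and 9.61 CPM to 18.2, 18.8 and 22 CPM on FPC and from 16.1, 13.0, 11.2 and 11.4 CPM to 18.8, 17.7 and 19.5 CPM on the CDAHFD (0.69 ± 0.16 and 0.53 ± 0.15, adjusted p = 0.000734 and 0.00375). The peak at -535 bp (chr14:55577859-55578059) fell from 17.0, 12.2, 16.8 and 12.1 CPM to 9.1, 7.12 and 11.8 CPM and from 10.5, 9.42, 9.39 and 11.9 CPM to 5.02, 6.84 and 5.12 CPM (-0.66 ± 0.22 and -0.87 ± 0.23, adjusted p = 0.0136 and 0.00227). Neither peak's advanced libraries overlapped the controls.

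More promoter peaks of the family, those within 1000 bp of the annotated start, rose than fell, and more of its other peaks fell than rose. In advanced FPC livers 35 of the 61 member promoter peaks rose and 3 fell (38.9% and 12.1% of all promoter peaks, edgeR adjusted over all peaks), with a median of 0.37 against 0.20 for all promoter peaks. Of the 73 other member peaks 10 rose and 23 fell (23.9% and 32.3% of all other peaks within 50 kb), with a median of -0.15 against -0.13, so the shares and medians of the other peaks were near those of all such peaks. In advanced CDAHFD livers 25 promoter peaks rose and 4 fell (31.5% and 13.7%), and 12 other peaks rose and 28 fell (25.7% and 32.7%). The promoter medians there were 0.19 for members and 0.11 for all, and the medians of other peaks -0.22 and -0.11. The rising promoter peaks on both diets included that of Psmc3ip, which is no subunit (0.32 ± 0.11 and 0.31 ± 0.10, edgeR adjusted p = 0.0146 and 0.0127).

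In mild FPC livers 20 promoter peaks of the family rose and 3 fell (16.9% and 7.31%), and 8 other peaks rose and 6 fell (15% and 14.7%). In mild CDAHFD livers 16 promoter peaks rose and 0 fell (22% and 9.77%), and 11 other peaks rose and 22 fell (20.8% and 22%). At an unadjusted p under 0.05, 5 promoter peaks were lower in mild CDAHFD livers (edgeR; DESeq2 was not run on peaks). The count of 0 became 2, 1, 3 and 1 without CDAHFD control library 1, 2 or 4 or CDAHFD mild library 1. The 3 lower promoter calls in advanced FPC livers fell to 1 without FPC control library 2 or 4 or FPC advanced library 2. The 4 lower promoter calls in advanced CDAHFD livers fell to 2 without CDAHFD advanced library 3. In mild FPC livers the 8 higher calls among other peaks fell to 5 without FPC control library 4 or FPC mild library 3, and the 6 lower calls to 3 without FPC control library 3. The 11 higher calls among other peaks in mild CDAHFD livers fell to 7 without CDAHFD control library 4.

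**Figure D3:**
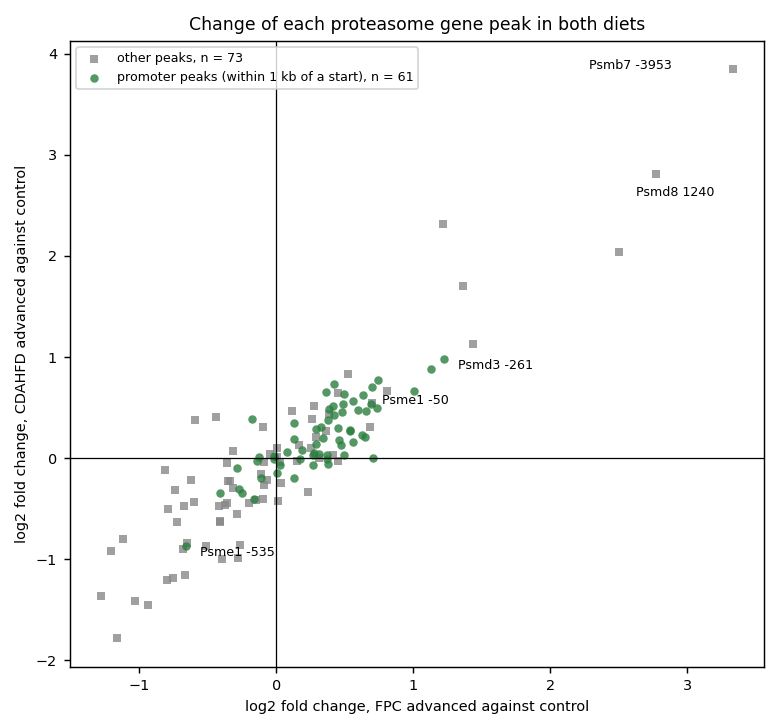
Log2 fold change of each of the 134 member peaks in advanced against control livers, FPC on the horizontal and CDAHFD on the vertical axis, for 61 promoter peaks (circles) and 73 other peaks (squares), with the distance in bp from the start for labelled peaks. Promoter peaks cluster to the upper right of the origin, and other peaks spread along both directions.

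Promoter peaks of all genes moved the same way. Together they held 40.6% to 42.1% of the counts in FPC controls, 42.5% to 44.4% in mild and 45.8% to 46.8% in advanced libraries, and 40.6% to 41.7%, 42.5% to 44.6% and 43.9% to 46.2% on the CDAHFD. Summed over the family, promoter peaks held 1118 to 1203 CPM in FPC controls, 1269 to 1308 CPM in mild and 1384 to 1483 CPM in advanced livers. On the CDAHFD these ranges were 1136 to 1223, 1245 to 1299 and 1309 to 1400 CPM, and the 3 groups of each diet did not overlap. Other member peaks held 786 to 848, 800 to 860 and 748 to 776 CPM on FPC and 866 to 912, 778 to 824 and 786 to 826 CPM on the CDAHFD. The part of the library-wide promoter share in the promoter result was not tested. Scaled by promoter peaks, 20 member promoter peaks rose and 8 fell in advanced FPC livers, where 21.7% and 23.9% of all promoter peaks did.

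**Figure D4:**
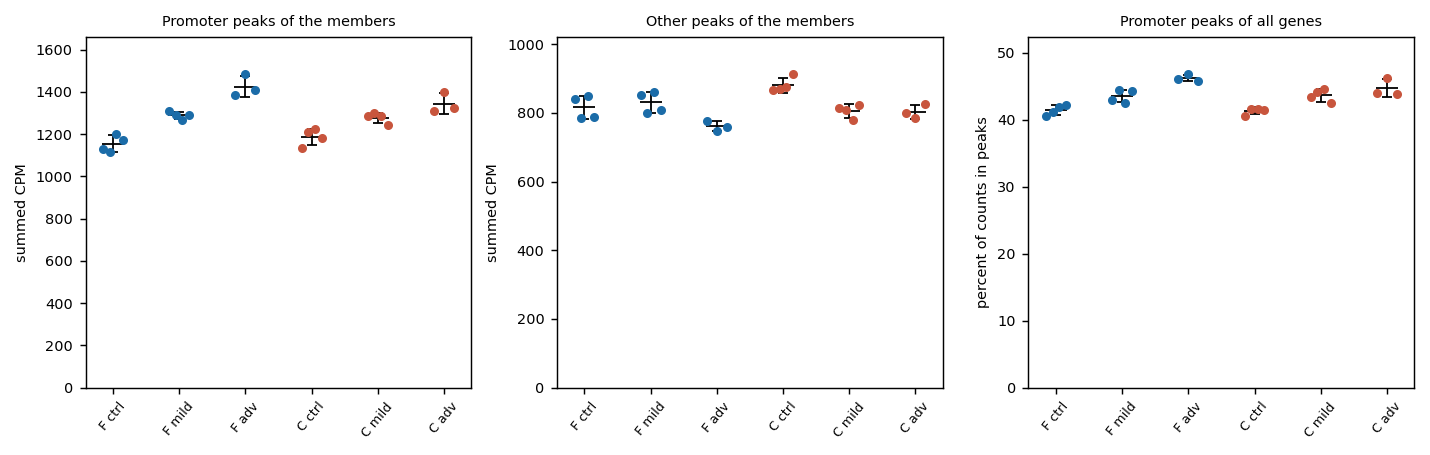
Summed CPM of the members' promoter peaks (left) and other peaks (middle), and the percent of all counts in promoter peaks of any gene (right), 1 point per library with group mean and SD. The left and right panels rise from control over mild to advanced on both diets, and the middle panel does not.

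At 27 members with peaks of both classes, a promoter peak rose while another peak fell at 9 genes in advanced FPC livers (Psma1, Psma3, Psmb3, Psmb8, Psmb9, Psmc4, Psmd1, Psmd7 and Psmg1). This was so at 5 genes on the CDAHFD (Psma1, Psmb3, Psmb8, Psmd1 and Psmd9), and 4 genes were in both lists. Of all 7105 genes with both classes 20.2% did so on FPC and 18.4% on the CDAHFD, against 33.3% and 18.5% of the members. The reverse, a falling promoter peak with a rising other peak, was found at 0 members on FPC (also 0 at an unadjusted p under 0.05, edgeR) and 1 on the CDAHFD, and at 5.98% and 8.64% of all such genes. Some distant peaks lie inside other genes, such as 3 Psmd6 peaks in introns of Atxn7 and 2 Psmg4 peaks in introns of Slc22a23, so their assignment rests on distance alone. Psmc1 had no promoter peak by the authors' annotation. Its only peak, at -2161 bp from that start, overlaps the Psmc1 start window of RefSeq, so the class of this peak depends on the start used. The same was found for the Psmc2 peak at 1435 bp, and for none of the other 61 such peaks of members with a start window. For 10 peaks of members with no window it could not be checked.

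A start of another gene lay within 500 bp on the opposite strand at 5 members, namely Psma7 (Ss18l1, 19 bp), Psmd13 (Sirt3, 85 bp), Psmc5 (Ftsj3, 101 bp), Psma2 (Mrpl32, 205 bp) and Psmb9 (Tap1, 226 bp). The counts of a peak there cannot be given to 1 of the 2 genes. Psma2, at 6.0 CPM on average, had the lowest sum of the family.

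Calls on the 2 diets were set side by side. The diets share no library, and diet cannot be told apart from feeding period (20 weeks of FPC, 7 weeks of CDAHFD). Of the 18 members higher in advanced FPC livers, 8 were also higher in advanced CDAHFD livers (44.4% of the FPC list and 72.7% of the CDAHFD list), namely Psma3, Psmb2, Psmb6, Psmd3, Psmd8, Psmd12, Psmd5 and Psme3. Of those lower, Psma6, Psmb7, Psmd14 and Psme4 were lower on both (57.1% and 44.4%), and no member was called in opposite directions. Over all genes, 72.5% and 78.2% of the higher and 75.9% and 77.0% of the lower calls were shared. Member promoter peaks shared 23 higher calls (65.7% and 92.0%) and 3 lower calls (100% and 75.0%), where all promoter peaks shared 63.8% and 78.9%, and 67.8% and 60.1%. Other member peaks shared 8 higher (80.0% and 66.7%) and 19 lower calls (82.6% and 67.9%), where all other peaks shared 82.5% and 76.7%, and 76.6% and 75.7%. No difference between these shares was tested. Over the 46 sums the log2 fold changes of the diets correlated with Pearson r = 0.766 and Spearman rho = 0.711, a description across genes, which are not independent replicates and share the libraries.

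Promoter changes were set beside the motifs printed above. Of the 6 members with the antioxidant core, 4 had a highest promoter peak that rose on FPC and 4 on the CDAHFD, with medians of 0.52 and 0.46. Of the 32 others with a window, 20 and 12 rose, with medians of 0.38 and 0.21. Members with the ETS core had medians of 0.32 and 0.18 (14 genes), and those without it 0.45 and 0.29 (24 genes). These are descriptions of few genes, and no difference between them was tested.

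Genes that work with the proteasome were counted in the same way. Of all genes 30.7% rose and 30.5% fell in advanced FPC livers, and 28.5% and 30% did on the CDAHFD. Of 11 other proteasome proteins measured, 4 rose and 4 fell in advanced FPC livers and 3 rose and 5 fell on the CDAHFD, shares near those of all genes on FPC. Zfand2a, a stress-induced proteasome adaptor, changed by 0.70 ± 0.08 and 0.91 ± 0.08 (edgeR adjusted p = 9.34e-08 and 4.67e-10), and Pomp, a core assembly factor, by -0.43 ± 0.09 and -0.44 ± 0.08. Of 15 ubiquitin and shuttle factors 5 rose and 1 fell on FPC and 4 rose and 1 fell on the CDAHFD. Vcp, the segregase that extracts ubiquitinated proteins, changed by 0.23 ± 0.06 and 0.48 ± 0.06, and Uba6, an activating enzyme, by -0.19 ± 0.07 and -0.18 ± 0.06.

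Of 7 regulators of proteasome genes, 2 rose and 2 fell on FPC and 3 rose and 2 fell on the CDAHFD. Nfe2l1 rose on both diets (0.28 ± 0.05 and 0.47 ± 0.05, edgeR adjusted p = 2.73e-05 and 1.12e-08), and Nfe2l2 fell on both (-0.44 ± 0.06 and -0.22 ± 0.06, adjusted p = 6.08e-07 and 0.00197). Of 12 genes of MHC class I presentation, 5 rose and 3 fell on FPC and 7 rose and 2 fell on the CDAHFD, beside the shares of all genes given above (30.7% and 30.5%, and 28.5% and 30%). Tap1 changed by 0.63 ± 0.20 and 0.18 ± 0.18 (adjusted p = 0.00874 and 0.413).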

How the data were processed

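ATAC-seq libraries of 22 mice were analysed from 1 deposited table of estimated counts per peak, in which 47.8% of values end in 0.5, a step that no label or header explains. The authors' un-normalized expected counts came from BWA 0.7.5a-r405, SAMtools, HOMER and DESeq2 on mm10, per the submitters' processing notes, with replicates kept apart and peak annotation by nearest start, per the file headers. Peak counts were rounded to whole numbers, summed per gene over peaks within 50 kb of its start, scaled by TMM and tested with edgeR 4.0.16 (limma 3.58.1, R 4.3.3) by the quasi-likelihood test over 6 groups without a batch or block term, for 15686 genes and, separately, 68827 peaks, each with its own TMM factors and Benjamini-Hochberg adjustment. A gene sum grows with the number of its peaks, so levels are compared between single peaks, which share 1 length. CPM are counts over the TMM-scaled library total times 1e+06. For gene sums that total covers only the counts summed per gene within 50 kb, and for single peaks it covers all peaks. CPM of sums and of peaks are therefore on different scales. Psmd12, with 1 peak, read 32.3 CPM as a sum and 27.1 CPM as a peak in FPC control library 1. SE is the log2 fold change over the root of the F statistic. Library totals of 3785115 to 9328987 counts limit the precision of peaks with few counts. Groups came from the labels. The p-values set differences between groups against the spread between libraries within groups, estimated over all 6 groups together.

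The members and lists were chosen with earlier results of these data known. Members described by library were chosen in each diet from those called in advanced livers. They were up to 4 with the smallest p among those higher and up to 4 among those lower. Psmb8, Psmb9, Psmb10, Psme1, Psme2 and members that differed between diets were described as well. For many of these the highest promoter peak and the peak of smallest p are given. Single peaks of Psma3 and Psme3 are not given. Psmb6, Psmd5, Psmg3 and further peaks were added after their values were seen. Alternatives were RLE, cyclic loess, promoter-peak TMM, a minimum mean of 5 CPM, promoter peaks alone, peaks within 10 kb, counts cut to whole numbers, libraries of 1 diet alone, DESeq2 1.42.0 and leaving out each library. The model was tested on simulated data. Another gene list is not reported here.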

Additional observations from a re-analysis of the deposited data

Results flagged for a closer look

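Among the 18 described members, 4 of 72 groups of 4 libraries had 1 library far from the other three, and chance alone marks about 1 in 20 such groups. These were Psma4 in FPC mild library 4 (78.0 CPM), Psmd14 in FPC control library 1 (59.3 CPM), Psmd2 in CDAHFD mild library 1 (33.0 CPM) and Psme3 in CDAHFD mild library 3 (19 CPM).

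The change of Psmc4 from control was called different between the diets, by -0.29 in advanced and -0.35 in mild livers (CDAHFD minus FPC, log2, edgeR adjusted p = 0.0413 and 0.0105). The advanced call was lost in most edgeR fits that left out a library. It was also lost with RLE, TMM from promoter peaks, promoter peaks alone and peaks within 10 kb (edgeR adjusted p = 0.0515, 0.0826, 0.0976 and 0.0543), and with DESeq2 (adjusted p = 0.0788). The controls of the 2 diets were different animals on different feeding periods.

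Of 12 peaks assigned to members from beyond 50 kb, which were left out of the sums, 2 rose and 5 fell in advanced FPC livers and 3 rose and 7 fell on the CDAHFD. Of all other peaks within 50 kb, 23.9% rose and 32.3% fell on FPC, and 25.7% and 32.7% on the CDAHFD. The shares over all peaks beyond 50 kb were not computed. Those that rose are assigned to Psmg4 and lie in introns of Slc22a23. The peak at 50162 bp rose by 2.64 on FPC and 2.61 on the CDAHFD (edgeR adjusted p = 2.28e-08 and 1.9e-09), the peak at 84106 bp by 0.99 and 1.22 (adjusted p = 0.00396 and 9.07e-05), and the peak at 50336 bp by 1.06 on the CDAHFD (adjusted p = 0.0007; 0.38 on FPC, adjusted p = 0.216). The Psmg4 peak at 60160 bp fell on both diets, by 0.70 and 0.41 (adjusted p = 3.53e-05 and 0.0043), and the one at 76705 bp was not called. The other calls, all lower, were at Psmb7 and Psmd6 on both diets and at Psmd7 on the CDAHFD.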

How the results depend on the processing

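Of 488 counts of calls under alternatives, 395 stayed within 1.5 times of the reported count and 93 moved. Of 635 fits of described members, 564 kept direction and side of the threshold, 24 fell below it, 13 came to pass it and 34 changed sign. For those that moved the cause was not tested.

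With TMM from promoter peaks, members called higher and lower changed to 9 and 10 in advanced FPC livers (23.4% and 37.5% of all genes, median of all genes -0.09). For FPC advanced against mild they changed to 2 and 7 (11.3% and 22.1% of all genes). For the advanced difference between diets they changed to 1 and 0 (4.28% and 1.4%). Promoter peaks then gave 20 higher and 8 lower in FPC advanced (21.7% and 23.9% of all promoter peaks) and 13 and 6 in FPC mild (11.3% and 13.0%). They gave 7 lower in CDAHFD advanced (22.6%) and 7 lower in CDAHFD mild (15.2%). Other peaks gave 5 higher and 10 lower in FPC mild, and the share of all such peaks is not given here. With TMM from all peaks, chosen after seeing the data, the counts were 24 higher and 4 lower (FPC advanced, 38.7% and 23.2% of all genes, median 0.10). They were 2 lower (FPC mild, 16.1%), 17 higher (CDAHFD advanced, 33.5%), 2 higher and 0 lower (CDAHFD advanced against mild, 11.5% and 6.43%), and 2 lower (mild difference, 2.91%). With peaks within 10 kb they were 3 lower (FPC mild), 4 lower (FPC advanced against mild), 4 lower (CDAHFD advanced), 3 lower (CDAHFD mild), 1 higher and 0 lower (CDAHFD advanced against mild), and 1 higher and 0 lower (advanced difference). The shares of all genes under that setting are not given here. With promoter peaks alone the counts were 1 higher and 1 lower (FPC advanced against mild, 9.58% and 9.06% of all genes). They were 0 lower (CDAHFD advanced against mild, 3.29%) and 0 lower (mild difference, 1.24%). Cyclic loess gave 1 higher and 0 lower (CDAHFD advanced against mild), 1 higher and 2 lower (mild difference), 1 lower among promoter peaks in FPC advanced and 1 lower in CDAHFD mild livers. RLE gave 0 lower (CDAHFD advanced against mild, 7.83% of all genes), and 1 higher and 0 lower (advanced difference, 3.32% and 1.75%). DESeq2 gave 0 lower in both of these (7.48% and 1.56% of all genes). The 5 CPM minimum gave 0 lower for CDAHFD advanced against mild, and libraries of the same diet alone gave 1 higher and 0 lower there. The shares of all genes under these last 2 settings are not given here.

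Leaving out each library gave 12 to 19 higher and 6 to 8 lower (FPC advanced), 11 to 14 and 2 to 5 (FPC mild), 1 to 5 and 1 to 4 (FPC advanced against mild), 8 to 13 and 7 to 11 (CDAHFD advanced), 7 to 11 and 6 to 8 (CDAHFD mild), 0 to 1 and 0 to 1 (CDAHFD advanced against mild and the advanced difference), and 0 to 1 and 1 to 2 (mild difference). Promoter peaks gave 31 to 37 and 1 to 3 (FPC advanced), 14 to 17 and 2 to 4 (FPC mild), 19 to 26 and 2 to 6 (CDAHFD advanced) and 11 to 16 and 0 to 3 (CDAHFD mild). Other peaks gave 9 to 12 and 17 to 26, 5 to 7 and 3 to 7, 8 to 12 and 26 to 29, and 7 to 10 and 16 to 22. The shares of all genes and peaks with a library left out are not given here.

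Signs changed as follows. Psma1 went to 0.343 on FPC and 0.148 on the CDAHFD with promoter peaks alone, and to 0.415 and 0.198 within 10 kb. Psmb1 on FPC went to 0.069 and 0.141 under these 2 settings. Psmb7 within 10 kb went to 0.109 on FPC and 0.169 on the CDAHFD. Psmb9 on FPC, reported at -0.006, was 0.007 with cyclic loess, 0.09 with TMM from all peaks, 0.002 with the 5 CPM minimum, 0.297 with promoter peaks alone and -0.04 to 0.045 with 1 library left out. Psmc4 on FPC was -0.017 with promoter TMM. Psmb10 on the CDAHFD was -0.022 with promoter TMM and -0.014 to 0.107 with 1 library left out. Psme1 on FPC was 0.089 (TMM from all peaks), 0.002 (5 CPM minimum), 0.002 (counts cut) and -0.123 to 0.096 with 1 library left out. Psme1 on the CDAHFD was 0.006 (RLE), 0.06 (TMM from all peaks), 0.009 (5 CPM minimum), 0.009 (same diet), 0.006 (DESeq2), and -0.037 to 0.058 with 1 library left out. No paired analysis was possible because no label ties a mouse of 1 group to a mouse of another, and replicate numbers only name the libraries.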
